A study of Homo sapiens with 6 samples.

Results

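The segment runs for 21.4 Mb along the short arm of human chromosome 20, from the start of MAVS to the start of PYGB on the GRCh38.p14 assembly. Its members are all named array probe sets of genes that start in this interval. The arrays held 105 such probe sets for 69 genes, of 19064 named probe sets for 11963 genes in all. The members were chosen by position, but the ends of the interval were selected on measured values, the lower signals of its genes in the isolate S1b than in the isolate S1a, and it was taken as a possible copy-number block with exceptions inside it. DNA was not measured here, so copy number itself is not among the data. A filter on dim probe sets left 40 of the 69 genes for testing, and the other 29 had no probe set above it.

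Total RNA was hybridised to 6 Affymetrix expression arrays, 2 each for S1b, S1a and the parental line. All 3 populations are MDA-MB-231, an established human breast cancer line with mesenchymal traits that lacks hormone receptors. S1b and S1a carry the label of seeder cells, a name for tumour cells that leave a tumour and later recolonise one, and each is a single isolated population of the line, with S1a labelled as population 1 and S1b as population 2. The cultures of all groups were kept below confluence in DMEM with 10% fetal bovine serum, no drug, gene edit or transgene is named in the labels, and no isolate of another kind was measured. The 2 arrays of a group are titled as biological replicates, but no label names separate cultures. The p-values therefore cover only the spread between these arrays, which may be technical.

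Cancer lines commonly gain or lose whole chromosome arms, and the transcript levels of many neighbouring genes then tend to shift a little in the same direction, while single genes within such a block can follow their own regulators. The short arm of chromosome 20 carries genes of general use to a dividing cell, such as the DNA sliding clamp PCNA, beside genes with narrow expression, such as the cystatin cluster, whose products inhibit cysteine proteases. It also carries PLCB1, a phospholipase C that cuts a membrane phosphoinositide after G protein signalling, and JAG1, a ligand of the Notch receptors.

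The promoters of 4 members are shown because they stand at both ends of the segment (MAVS and PYGB) and mark broadly used genes within it (PCNA and CST3). They are the 250 bases before each gene's start in RefSeq on GRCh38.p14, 5′ to 3′ on the strand of the gene. Capitals mark a GC box (GGGCGG or, on the other strand, CCGCCC) or a CCAAT box (CCAAT or ATTGG).
MAVS promoter, chr20:3846584-3846833, plus strand: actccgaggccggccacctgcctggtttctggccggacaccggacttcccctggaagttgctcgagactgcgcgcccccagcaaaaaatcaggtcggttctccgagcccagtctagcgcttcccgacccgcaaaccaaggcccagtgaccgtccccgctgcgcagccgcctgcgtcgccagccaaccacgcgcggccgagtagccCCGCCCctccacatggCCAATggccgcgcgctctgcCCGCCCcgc
PCNA promoter, chr20:5126623-5126872, minus strand: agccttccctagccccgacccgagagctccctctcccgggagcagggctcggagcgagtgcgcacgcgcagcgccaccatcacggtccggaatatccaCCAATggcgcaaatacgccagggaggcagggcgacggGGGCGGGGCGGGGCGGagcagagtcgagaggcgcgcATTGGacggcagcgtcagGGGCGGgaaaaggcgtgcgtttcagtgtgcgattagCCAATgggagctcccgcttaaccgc
CST3 promoter, chr20:23637956-23638205, minus strand: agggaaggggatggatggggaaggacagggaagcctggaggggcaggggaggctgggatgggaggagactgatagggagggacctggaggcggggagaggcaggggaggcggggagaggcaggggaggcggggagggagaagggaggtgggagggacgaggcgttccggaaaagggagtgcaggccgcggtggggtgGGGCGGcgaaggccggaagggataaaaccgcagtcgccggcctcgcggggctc
PYGB promoter, chr20:25247835-25248084, plus strand: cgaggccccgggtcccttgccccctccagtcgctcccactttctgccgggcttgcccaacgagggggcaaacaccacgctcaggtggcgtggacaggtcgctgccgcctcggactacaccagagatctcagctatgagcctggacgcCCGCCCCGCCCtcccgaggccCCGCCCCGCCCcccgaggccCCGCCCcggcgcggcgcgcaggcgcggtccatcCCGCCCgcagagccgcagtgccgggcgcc

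The GC box occurred 2 times in the MAVS window, 4 times in that of PCNA, 1 time in that of CST3 and 6 times in that of PYGB, with overlapping matches counted. MAVS held 1 CCAAT box and PCNA 3, and the other two windows held none. The letters TATAAA or TTTATA were in none of the 4. RefSeq's promoter table held 42 of the 69 members, and a GC box was in 59.5% of their windows, against 42.3% of the windows of 27305 genes. For the CCAAT box the shares were 42.9% of the members and 33% of all genes, and for TATAAA or TTTATA 0% of the members and 11.1% of all genes. A match describes letters in a window, not a site in use. PLCB1, FOXA2, CST1, CST2, CST4 and CST7 had no entry in that table.

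A MAS5 signal is a probe set's brightness on a linear scale, and each array had the same trimmed mean of 500.2 units. Signals correlated at 0.9871 between the S1b arrays, 0.9888 between the S1a arrays and 0.9793 between the parental arrays (Pearson's r over all probe sets). S1b correlated with S1a at 0.9796 to 0.982, with parental at 0.9186 to 0.9221, and S1a with parental at 0.9287 to 0.9315. The markers of the line were high on all arrays for vimentin (VIM, 18446 to 27237 units), CD44, CAV1, AXL and MSN, and PGR, CDH1 and KRT5 lay below the filter of 51.6 units on all 6. Among the other markers that should be low, ESR1 ran from 18.3 to 82.1 units, ERBB2 from 147 to 258 and EPCAM from 346 to 495. SPARC, a matrix protein of mesenchymal cells, was listed for this line too and had 394 and 367 units in S1b, 35.0 and 39.0 in S1a and 37.1 and 39.6 in parental cells. Of the markers of other cells, PTPRC, CD79A, LYZ, DCN and VWF were below the filter on every array. The summed signal of 4 leukocyte markers was 54.0 to 60.1 units in S1b, 69.7 to 85.7 in S1a and 89.4 to 133 in parental cells, that of 3 fibroblast markers 145 to 168 in S1b, 172 to 176 in S1a and 256 to 277 in parental cells, and that of 3 endothelial markers 66.3 to 67.7 in S1b, 102 to 104 in S1a and 39.8 to 59.6 in parental cells. Their part in the results was not tested. In a culture, fewer cells with a transcript and less of it per cell cannot be told apart.

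Nearly all tested genes of the segment were dimmer in S1b than in S1a, while its 46 probe sets below the filter were split, with 23 lower and 23 higher. Of the 40 tested members, 36 had a lower mean log2 signal in S1b, where 48.5% of all 7554 tested genes did. The median difference, S1b minus S1a, was -0.445 on the log2 scale, a linear ratio of 0.734, with quartiles of -0.5605 and -0.2368. Over all tested genes the median was 0.00822. Both S1b arrays lay below both S1a arrays for 33 of the 40 members, against 23.9% of all tested genes, and above both for 3 members, against 25.9%. With limma at an adjusted p under 0.05, 12 members were called lower, against 1.5% of all tested genes, and 0 were called higher, against 0.477%. At an unadjusted p under 0.05 limma gave 23 lower and 1 higher. For counts at an unadjusted p, here and below, the share of all tested genes was not computed, so they have no background beside them. The segment was drawn from this contrast, so these counts describe the choice and are no test of it. Without limma's variance trend 1 of the 12 calls was left, and 0.132% of all tested genes were called lower. Most of the 12 calls were lost when any one S1b or S1a array was left out, which leaves 1 array in that group.

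**Figure D1:**
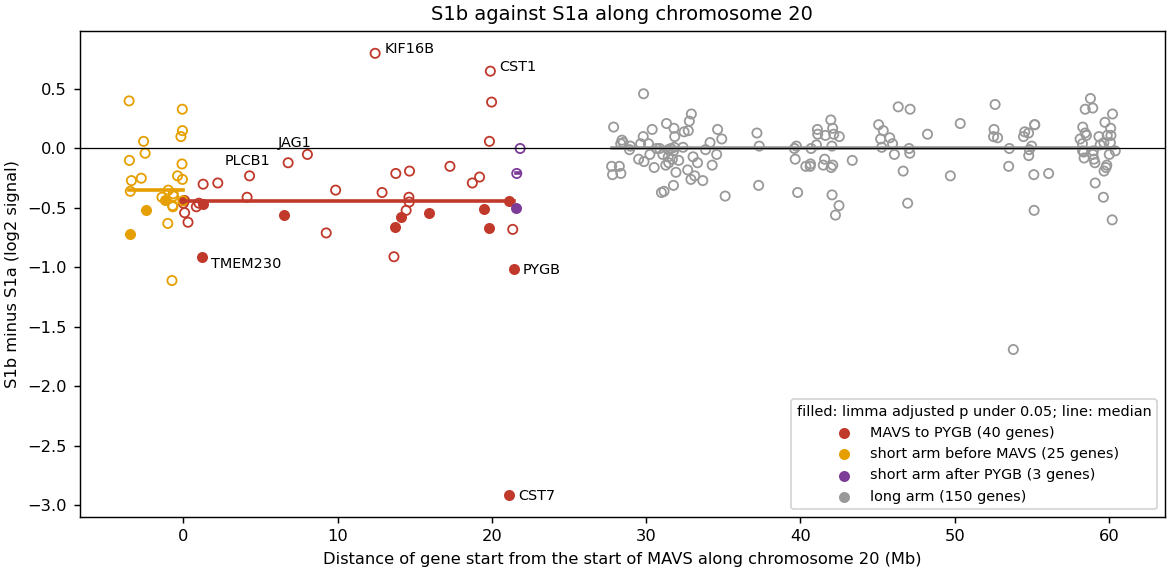
S1b minus S1a (log2 signal, y axis) for each tested gene of chromosome 20 against the distance of its start from the start of MAVS (Mb, x axis). Filled points have a limma adjusted p under 0.05 and lines are medians. The 40 genes from MAVS to PYGB have a median of -0.445 with quartiles of -0.5605 and -0.2368, with KIF16B and CST1 above 0 and CST7 far below, while the 150 genes of the long arm lie around a median of -0.00279.

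The difference was of similar size along the interval, cut into stretches of equal length. The 14 tested genes in the stretch nearest MAVS had a median of -0.461, the 9 in the middle stretch -0.368 and the 17 in the stretch nearest PYGB -0.444. Pearson's r across the 40 genes was -0.0423 between the difference and the distance from MAVS, and -0.0851 between the difference and the mean log2 signal, both given as descriptions, since neighbouring genes on the same arrays are not independent. The 19 members with a mean signal of 500 units or more were all lower in S1b, with a median of -0.47, and the 21 dimmer ones had a median of -0.41. Each array's level of the segment, the median deviation of the 40 genes from their own means over the 6 arrays, was -0.242 and -0.153 in S1b, 0.194 and 0.181 in S1a, and 0.0435 and 0.0642 in parental cells. The S1b arrays were thus the lowest and the S1a arrays the highest, with parental arrays between them, and the pooled SD between replicates was 0.0377.

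On the other chromosomes the medians lay near 0. Those of the 22 others ran from -0.0165 to 0.0692, and the long arm of chromosome 20 had a median of -0.00279 over 150 genes, of which 78 were lower in S1b and 0 were called in either direction with limma (9 lower and 6 higher at an unadjusted p under 0.05). Lower values in S1b also stood before MAVS, where 25 tested genes of the short arm had a median of -0.348, a linear ratio of 0.786, with 20 lower and 17 whose arrays did not overlap, and 3 called lower. Of all tested genes 48.5% were lower in S1b, 23.9% had both S1b arrays below both S1a arrays and 1.5% were called lower. After PYGB the short arm held 3 more tested genes. The whole short arm carried 16 of the 113 genes called lower in S1b over the genome, or 14.2% of them, and the segment 10.6%. Of the 7554 tested genes the segment held 40, and the short arm another 25 before MAVS and 3 after PYGB. These counts come from the contrast that drew the segment and carry no test.

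**Figure D2:**
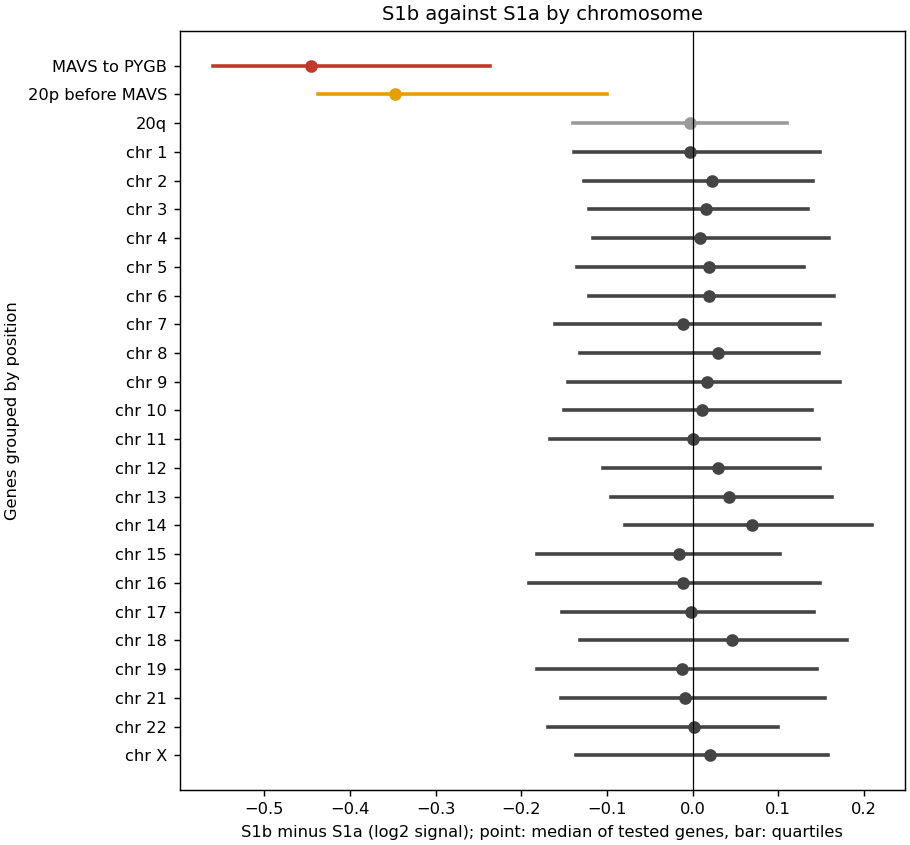
Median (points) and quartiles (bars) of S1b minus S1a (log2 signal, x axis) over the tested genes of the segment, of the short arm before MAVS, of the long arm and of each other chromosome (y axis). The segment, at -0.445, and the short arm before it, at -0.348, lie left of all other groups, whose medians run from -0.0165 to 0.0692.

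At the MAVS end, the 5 tested genes just inside the interval had differences of -0.43 to -0.62. MAVS, the mitochondrial adaptor through which cytosolic RNA sensors signal, had 347 and 298 units in S1b and 467 and 424 in S1a, a difference of -0.46. The others inside were PANK2 (-0.43), RNF24 (-0.54), SMOX (-0.62) and PRNP (-0.49). Just outside, the values did not follow one direction. AP5S1, a subunit of an adaptor complex, had a difference of -0.44, CDC25B, a phosphatase that activates mitotic kinase, 0.15, CENPB, a centromere protein, -0.26, SPEF1, a cilium protein, 0.33, and ADISSP -0.13. SPEF1 was near the filter on all arrays, at 53.1 and 64.2 units in S1b and 32.8 and 62.5 in S1a.

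At the other end, the last tested genes inside were CST2 (0.39), CST7 (-2.91), APMAP (-0.44), ENTPD6 (-0.68) and PYGB (-1.01). PYGB, the brain form of glycogen phosphorylase, had 626 and 691 units in S1b and 1272 and 1380.3 in S1a. Beyond it, GINS1, a subunit of the replicative helicase, had 1053 and 1004 units in S1b and 1506 and 1407 in S1a, a difference of -0.50. NINL, a centrosomal protein, differed by -0.21 and the zinc finger gene ZNF337 by 0.00, and both were dim. The next tested genes, ID1 (-0.15) and BCL2L1 (-0.22), lie across the centromere on the long arm.

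Among the genes of DNA replication and chromatin, 3 of the 9 listed were tested and all 3 were lower in S1b. PCNA, the ring that holds DNA polymerases on their template, had 5318 and 6070.2 units in S1b, 7927 and 7821 in S1a and 6113 and 5614 in parental cells. The S1a arrays stood above the rest, S1b and parental overlapped, and S1b was 0.723 times S1a. ZNF133, a zinc finger repressor, had 118 and 109.9 units in S1b, 131 and 206 in S1a and 159.6 and 199 in parental cells. KIZ, a centrosome protein, differed least, with 171 and 167 units in S1b, 186 and 189 in S1a and 175 and 179 in parental cells, yet its isolates lay on either side of both parental arrays.

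For RNA processing, transcription and translation, 5 of the 10 listed genes were tested, and all 5 were lower in S1b, with differences of -0.21 to -0.51. NXT1, a cofactor of mRNA export, gave 1255 and 1206 units in S1b, 1726 and 1775 in S1a and 1561 and 1720.5 in parental cells. SNRPB2, a protein of the U2 spliceosomal particle, gave 3677 and 3754 units in S1b, 4841 and 4753 in S1a and 4085 and 3564 in parental cells. Neither gene's S1b arrays reached its S1a arrays. ESF1, a nucleolar protein whose yeast counterpart takes part in ribosomal RNA processing, had 1254 and 1298 units in S1b, 1708 and 1549 in S1a and 1022 and 1184 in parental cells, so the isolates were both above parental and S1a was the highest. RRBP1, a ribosome-binding protein of the endoplasmic reticulum, was ordered differently, with 894 and 879 units in S1b, 1020.2 and 1032 in S1a and 1286 and 1379.9 in parental cells, the highest. POLR3F, a subunit of RNA polymerase III, differed by -0.41 between the isolates, and its arrays overlapped.

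Metabolic and mitochondrial genes had the lowest group median, -0.537 over 6 tested of 14 listed, and all 6 were lower in S1b. PYGB had a ratio of 0.497 to S1a, and its parental arrays, at 678 and 735 units, overlapped those of S1b and lay under those of S1a. PANK2, the mitochondrial kinase that starts coenzyme A synthesis, gave 1324 and 1311 units in S1b, 1843 and 1706 in S1a and 1409.6 and 1584 in parental cells, with the 3 groups apart and parental in the middle. SMOX, which oxidises spermine, gave 106 and 126 units in S1b, 223 and 144 in S1a and 207 and 165 in parental cells, with a wide gap between the S1a arrays. The protease TASP1, listed here too, differed by -0.71 (123 and 141 units in S1b, 226 and 208 in S1a), the vitamin C transporter SLC23A2 by -0.46 and the phospholipid enzyme CDS2 by -0.30.

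Membrane traffic genes were 12 on the list and 8 in the test, of which 7 were lower in S1b and 1, KIF16B, was not. TMEM230, a membrane protein of secretory and recycling vesicles, gave 751 and 909.5 units in S1b, 1611 and 1509.7 in S1a and 1603 and 1421 in parental cells. Here S1a and parental overlapped and S1b alone was low, at 0.532 times S1a. SNX5, a sorting nexin that returns cargo from endosomes, showed the reverse arrangement, with 992 and 1015 units in S1b, 1470.2 and 1528 in S1a and 997 and 966 in parental cells, so that S1a alone was high. APMAP, a membrane protein first described in adipocytes, gave 1381 and 1255 units in S1b, 1686 and 1906 in S1a and 1805 and 1839 in parental cells, and again only S1b was low. MKKS, a chaperonin-like protein needed for cilia, gave 639 and 702 units in S1b, 1037 and 938 in S1a and 782 and 888 in parental cells, in the middle. ENTPD6, a nucleoside diphosphatase, gave 244 and 226 units in S1b, 369.6 and 389 in S1a and 416 and 567 in parental cells, with no overlap between groups. The differences, S1b minus S1a, were -0.41 for TMX4, a thioredoxin-like protein of the endoplasmic reticulum, and -0.19 for SEC23B, a coat protein of vesicles leaving that compartment.

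Of the adhesion and cytoskeleton genes, 5 of 8 listed were tested, and all 5 had a lower mean in S1b. DSTN, an actin-depolymerising factor, gave 6993 and 6963 units in S1b, 11170.4 and 10903 in S1a and 11883 and 13696 in parental cells. The 3 groups did not overlap and S1b was 0.632 times S1a. THBD, the thrombin receptor thrombomodulin, gave 594 and 607 units in S1b, 713 and 706 in S1a and 710.3 and 702 in parental cells. FERMT1, which activates integrins, differed by -0.29 with overlapping arrays, and BTBD3, which guides dendrites in mice, by -0.05, likewise overlapping. BFSP1, a lens filament protein, was dim, with 67.2 and 30.4 units in S1b, 74.6 and 107 in S1a and 39.7 and 43.3 in parental cells. It passed the filter only through S1a, so a difference was a condition of its being tested, yet it is among the members counted as lower and as not overlapping. Since the S1b mean lay below the filter, the means give at least 1.76-fold lower in S1b. The arrays were spread, and the fitted difference, -0.91 ± 0.44 (SE, limma adjusted p = 0.368), was not called.

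Of the signalling genes, 5 of the 14 listed were tested, and all 5 were lower in S1b, with differences of -0.12 to -0.54. RIN2, an exchange factor for the endosomal GTPase Rab5, gave 1418 and 1594 units in S1b, 2393 and 1995 in S1a and 1390.4 and 1252 in parental cells, with S1a highest. RNF24, a membrane-anchored RING finger protein, gave 138 and 208 units in S1b, 235 and 260.4 in S1a and 341 and 454 in parental cells, with parental highest. JAG1 moved little on its brightest probe set, which gave 1797 and 1841 units in S1b, 1905 and 2055 in S1a and 1669 and 1884 in parental cells. That probe set carries the manufacturer's suffix for probes shared with other sequences. Another JAG1 probe set gave 1323 and 1285 units in S1b and 2020.0 and 1827 in S1a, a difference of -0.56, and a dimmer one -0.32. In a fit of every probe set, the brighter of these other probe sets was called lower (limma adjusted p = 0.0164), in the contrast that drew the segment.

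PLCB1 was bright in both isolates and dim in parental cells. Its brightest probe set gave 450.4 and 435 units in S1b, 456 and 593 in S1a and 3.23 and 21.5 in parental cells. The isolates were far above parental, and S1b minus S1a was -0.23, with the S1a arrays further from each other than the S1b arrays were. Its 2 other probe sets averaged 23.9 and 18.7 units over the arrays and lay below the filter. FOXA2, a transcription factor of endoderm, gave 596 and 533 units in S1b, 673 and 708 in S1a and 124 and 104 in parental cells, and so was likewise high in both isolates and somewhat lower in S1b than in S1a.

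The cystatins were the role group whose members parted. Of 11 listed, 7 had a probe set and 5 were tested, and 2 of these were lower and 3 higher in S1b, with a median of 0.0559. CST3 (cystatin C), the widely expressed secreted inhibitor of cysteine cathepsins, gave 1661 and 1581 units in S1b, 2583 and 2590.5 in S1a and 3489 and 3342 in parental cells. The groups did not overlap, with S1b the lowest and parental the highest. CST7 (cystatin F), an inhibitor known from immune cells that acts inside lysosomes, gave 26.6 and 18.7 units in S1b, 194 and 193 in S1a and 355 and 417 in parental cells. The S1b mean was below the filter, so CST7 was at least 3.76-fold lower in S1b than in S1a. The sums of the leukocyte markers, the fibroblast markers and the markers that should be low had the same order of groups. The sum of the endothelial markers had another order. Of the 4 leukocyte markers, PTPRC, CD79A and LYZ lay below the filter of 51.6 units on all 6 arrays, while CD3E rose above it at its highest. The part of these markers in the CST7 values was not tested. CST1 (cystatin SN), a salivary type, ran the other way, with 451 and 422 units in S1b, 275 and 279 in S1a and 129 and 128 in parental cells, so that S1b was the highest and parental the lowest. CST2 (cystatin SA) gave 219 and 181 units in S1b, 176 and 129.7 in S1a and 193 and 240.4 in parental cells. CST4 (cystatin S) gave 257 and 249 in S1b, 200.4 and 295 in S1a and 356 and 308 in parental cells, with the isolates overlapping. CST1, CST2 and CST4 are close copies of one another, so their probe sets may share signal and the values of each are uncertain.

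KIF16B, a motor that carries early endosomes, was the member with the highest S1b minus S1a value, 0.80, yet it gave only 21.1 and 23.5 units in S1b and 9.19 and 13.4 in S1a, both below the filter, and 135 and 122 in parental cells. No fold between the isolates is given for it. PRNP, the cellular prion protein, gave 4782 and 5679.9 units in S1b, 7315 and 7317 in S1a and 12004 and 10321 in parental cells, and the groups did not overlap.

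**Figure D3:**
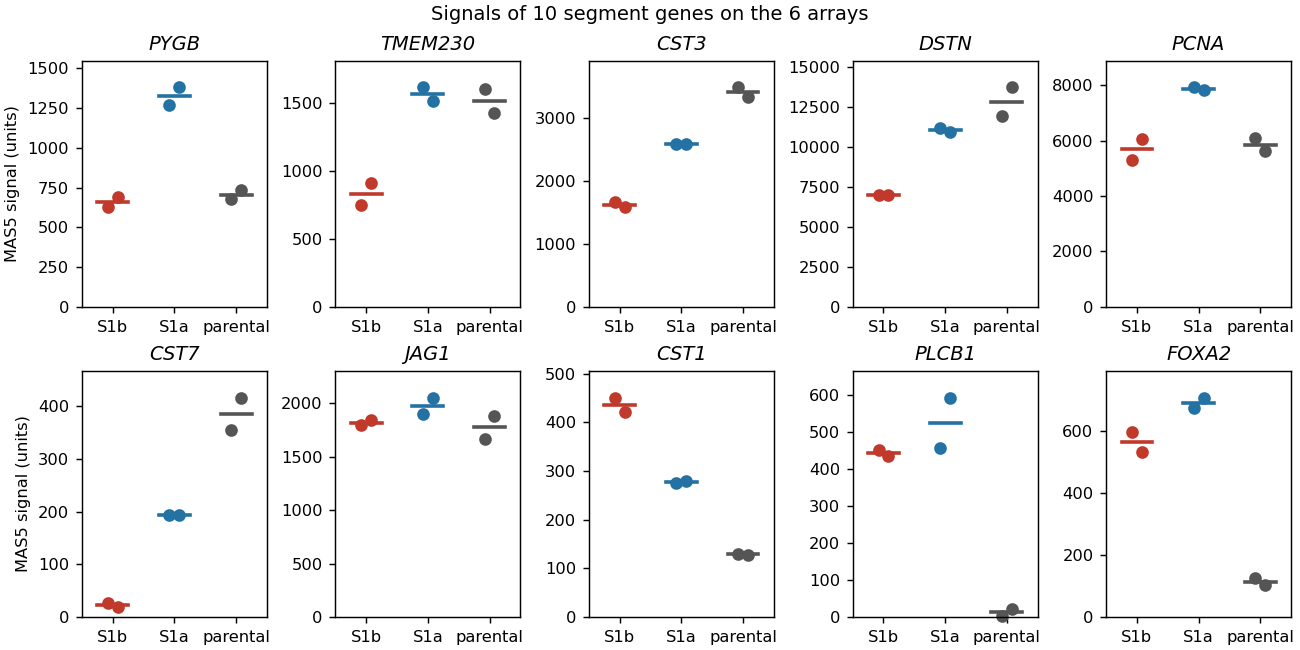
MAS5 signal in units (y axis, from 0, each panel with its own scale) of 10 segment genes on the 2 arrays each of S1b, S1a and parental cells (x axis), with the group mean as a line. In 6 genes (PYGB, TMEM230, CST3, DSTN, PCNA and CST7) S1b lies well below S1a. In JAG1 the isolates are close on the brightest probe set, which is shown, while another one had a difference of -0.56. In CST1 S1b is above S1a, and in PLCB1 and FOXA2 both isolates are far above parental cells.

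Set against the parental line, the segment medians of the isolates lay on either side of it, as did those of the short arm before MAVS. The next comparisons share arrays with the one that drew the segment, and share the parental arrays with each other, so the values stand side by side with no test of the members. In S1b minus parental, 28 of the 40 members were lower, 13 were called lower with limma, against 21.5% of all tested genes, and 3 higher, against 21.4%. The median was -0.207, and both S1b arrays lay below both parental arrays for 22 members, against 35.9% of all tested genes. Without parental replicate 1 more were called higher, with no share of all tested genes taken. In S1a minus parental, 16 members were lower, 6 were called lower, against 20.3% of all tested genes, and 14 higher, against 20%. The median was 0.113, and both S1a arrays lay above both parental arrays for 20 members, against 33.9% of all tested genes. Without either S1a array fewer were called higher, and the share of all tested genes there was not taken. The short arm before MAVS had similar medians, -0.24 for S1b minus parental and 0.098 for S1a minus parental. On the long arm the medians were 0.097 for S1b and 0.094 for S1a, so a rise of S1a stood there too. In S1a minus parental 24.7% of the long arm genes were called higher.

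The level of parental cells depends on how arrays are scaled. Centring each array on its median moved the median of all tested genes by 0.192 for S1b minus parental and by 0.189 for S1a minus parental. The members' median became -0.015 in S1b, with 7 called higher, against 32.5% of all tested genes, and 10 lower, against 13%. In S1a it became 0.302, with 19 called higher, against 30.9% of all tested genes, and 3 lower, against 11.4%. Measured from the median of all genes the medians were -0.193 for S1b and 0.136 for S1a, which centring cannot change. Quantile normalization gave -0.229 for S1b and 0.119 for S1a, and cyclic loess -0.226 for S1b and 0.148 for S1a. The S1b minus S1a median was -0.443 after centring, since that step moved all genes by only 0.00263. In PCNA, SNX5 and PYGB only the S1a value was far from 0, and in TMEM230, DSTN and APMAP the S1b value was further from it. PCNA differed from parental by -0.04 in S1b and 0.43 in S1a, SNX5 by 0.03 in S1b and 0.61 in S1a, and PYGB by -0.10 in S1b and 0.91 in S1a. TMEM230 had -0.87 in S1b and 0.05 in S1a, DSTN -0.87 in S1b and -0.21 in S1a, and APMAP -0.47 in S1b and -0.02 in S1a. The S1a arrays lay above and the S1b arrays below both parental arrays for 4 members, PANK2, MKKS, NXT1 and KIZ, a pattern that 0.953% of all tested genes had.

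**Figure D4:**
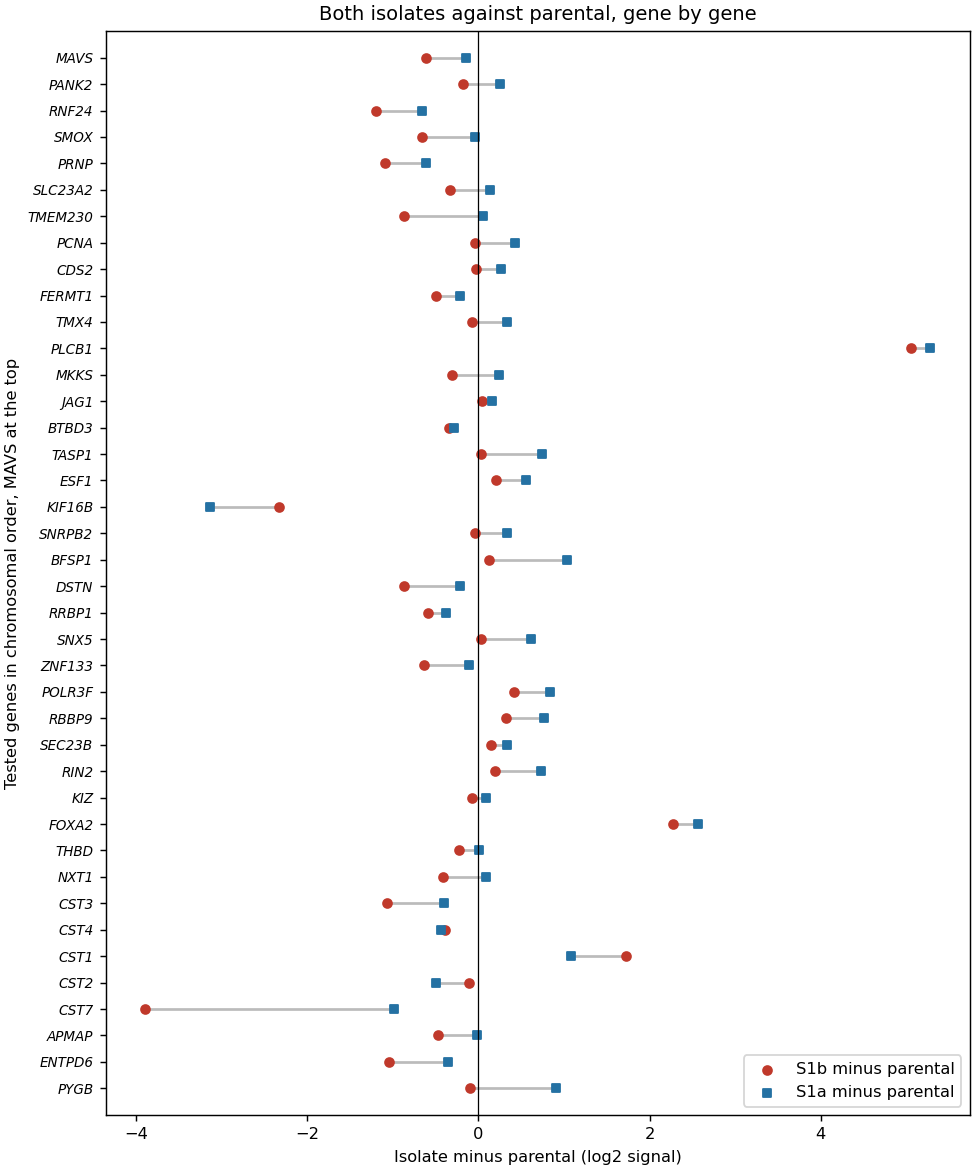
Difference from parental cells (log2 signal, x axis) of S1b (circles) and S1a (squares) for the 40 tested genes in chromosomal order (y axis, MAVS at the top). A grey line joins the isolates of a gene. The S1b circle lies left of the S1a square in 36 genes, and PLCB1, FOXA2, CST1, KIF16B and CST7 stand far from 0.

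The mean of both isolates minus parental is a separate direction from S1b minus S1a, so noise in that contrast does not enter it. The rule that drew the segment was nevertheless written with earlier results of these data known. In this comparison 10 members rose, against 23.5% of all tested genes, and 12 fell, against 24%. The members' shares, 25% higher and 30% lower, were near these. Arrays of the isolates and of parental cells did not overlap for 6 members (15%) in the upward direction, against 27.6% of all tested genes, and for 11 (27.5%) in the downward one, against 29.7%. The median was -0.0662, and -0.0178 over all tested genes. Median centring turned the members' median to 0.124, with 0.173 over all genes, and the calls to 15 higher, against 35.6% of all tested genes, and 8 lower, against 14.2%. Shares of calls near those of all genes are no result about the segment, so single genes are given.

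In the isolates' mean PLCB1 was at least 9.37-fold higher than in parental cells, with fitted log2 changes from 2.79 to 6.08 over the 18 alternatives that gave it a value. FOXA2 rose by 2.42 ± 0.12 (SE, limma adjusted p = 4.27e-07) and CST1 by 1.41 ± 0.13 (SE, limma adjusted p = 2e-05). All 4 isolate arrays were above both parental arrays in each of these genes. Smaller rises that kept their call under every alternative with a value were those of RIN2 (0.46, limma adjusted p = 0.00332), PYGB (0.40, 0.00458), ESF1 (0.39, 0.00486) and SNX5 (0.32, 0.00609). For PYGB and SNX5 that mean comes from S1a, since the S1b arrays overlapped the parental ones. RIN2 differed from parental by 0.19 in S1b and 0.73 in S1a, and ESF1 by 0.21 in S1b and 0.56 in S1a, and of these only the S1a values were called.

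The calls of POLR3F (0.63, limma adjusted p = 0.0324), RBBP9 (0.54, 0.0309), a hydrolase that binds the retinoblastoma protein, and SEC23B (0.25, 0.0409) were each lost under some alternatives. POLR3F gave 277 and 385 units in S1b, 372 and 513 in S1a and 305 and 193 in parental cells, where one S1b array lay below the higher parental array. POLR3F lost its call in 5, among them without parental replicate 2, S1a replicate 2 or S1b replicate 2. RBBP9 lost it in 8, among them without any one array but S1b replicate 1. RBBP9 gave 144 and 198 units in S1b, 240.2 and 223 in S1a and 134 and 135 in parental cells, with no overlap between isolates and parental. SEC23B lost it in 12, among them without any one array but parental replicate 1.

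Like BFSP1, KIF16B and PLCB1 passed the filter only through the arrays on which they were high. These were parental for KIF16B and the isolates for PLCB1, so a difference was a condition of their being tested. KIF16B and PLCB1 are among the counts of calls above. KIF16B was at least 2.49-fold lower in the isolates' mean, which is given as a description. Of the other genes that fell, CST7 had a change of -2.43 ± 0.21 (SE, limma adjusted p = 1.38e-05). For CST7 the parts of that mean were -3.89 in S1b, where the bound is at least 7.48-fold lower than parental, and -0.98 in S1a. CST3 fell by 0.74 on the log2 scale (limma adjusted p = 2.29e-05), PRNP by 0.85 (6.14e-05) and RNF24 by 0.93 (0.00272). All 4 isolate arrays were below both parental arrays in each of these 4 genes. ENTPD6 fell by 0.69 (limma adjusted p = 0.00271), DSTN by 0.54 (0.000422) and RRBP1 by 0.48 (0.000692), and the calls of these 7 genes were kept under every alternative that gave them a value. ENTPD6 had -1.04 in S1b and -0.35 in S1a, and DSTN -0.87 in S1b and -0.21 in S1a, and of these only the S1b values were called. RRBP1 was called in each isolate.

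TMEM230 fell by 0.41 (limma adjusted p = 0.0065), with -0.87 in S1b and 0.05 in S1a, and lost its call under median centring. MAVS fell by 0.38 (limma adjusted p = 0.0231), with -0.61 in S1b and -0.14 in S1a. It lost its call in 5 alternatives, among them without parental replicate 2, S1a replicate 2 or S1b replicate 2. APMAP fell by 0.25 (limma adjusted p = 0.0324) and lost its call in 8, among them without either parental array, S1a replicate 1 or S1b replicate 2. BTBD3 fell by 0.32 (limma adjusted p = 0.0467) and lost its call in 11, among them without any one array but parental replicate 2. With 4 isolate arrays against 2 parental arrays, an exact permutation test of one gene cannot go below p = 0.133 (two-sided), and the calls rest on limma's pooled spread.

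Probe sets of the same gene were set beside each other for the difference between the isolates. Of the 105 probe sets, 59 passed the filter, and 54 of these were lower and 5 higher in S1b, with a median of -0.444. The 46 dim ones had a median of 0.00188, and 23 of them were lower. In a fit of 11438 probe sets, 16 members' probe sets were called lower with limma, against 1.23% of all, and 0 higher (31 lower and 1 higher at an unadjusted p under 0.05). For 13 genes several probe sets passed, and 1 of these genes, RRBP1, had probe sets of opposite sign in S1b minus S1a, through a probe set whose value rounds to 0.00. In the other genes the sizes differed. RNF24 had -0.23, -0.54 and -1.20 on 3 probe sets, and THBD had -0.24 on the brighter and -0.97 on the dimmer of its 2. The RRBP1 values ran from 0.00 to -0.78 over 5 probe sets, and those of SEC23B from -0.19 to -0.57 over 3. In the mean of both isolates minus parental, 4 genes (CDS2, THBD, TMX4 and ZNF133) had probe sets of opposite sign and so disagreed, and none of them was called.

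**Figure D5:**
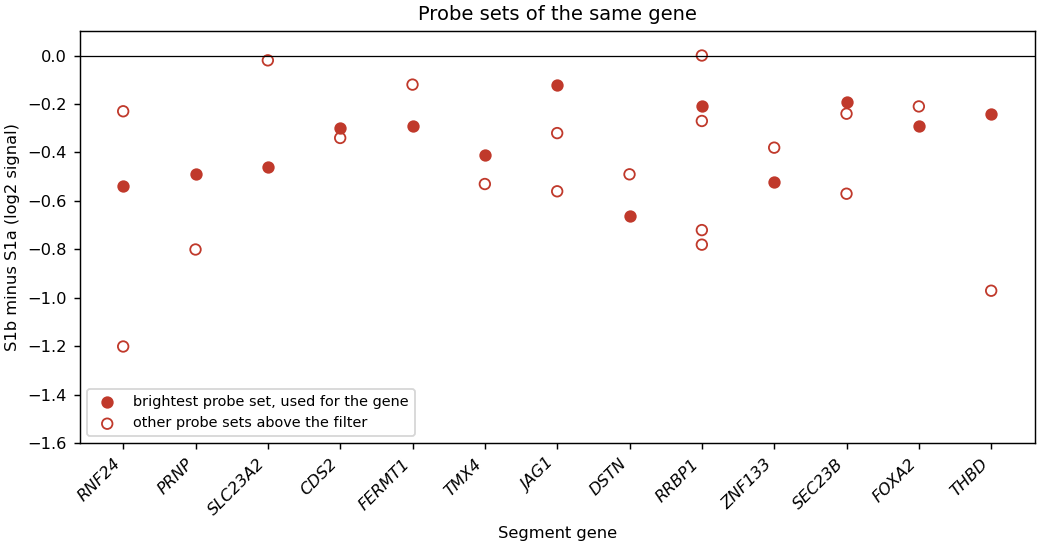
S1b minus S1a (log2 signal, y axis) for each probe set above the filter in the 13 segment genes (x axis, chromosomal order) that had several. Filled points are the brightest probe set, used for the gene, and open points the others. The points lie below 0 except 1 of RRBP1, which rounds to 0.00, and those of RNF24 run from -0.23 to -1.20.

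The 29 members without a tested probe set include the transcription factors NKX2-2, PAX1, INSM1, OVOL2 and VSX1, the receptors ADRA1D and SSTR4, the growth factor BMP2, the synaptic protein SNAP25, the phospholipase PLCB4, and the cystatins CST5 and CST8. They were left out of the tests above. In the fit without a filter limma called 2 of them against parental cells, both singled out after their values were seen. CHGB, a protein of secretory granules, gave 18.7 and 27.9 units in S1b, 17.2 and 19.1 in S1a and 5.59 and 2.14 in parental cells, and was called higher in S1b (limma adjusted p = 0.0489) and in the mean of both isolates (limma adjusted p = 0.0349). ANKEF1 gave 6.11 and 9.96 units in S1b, 34.4 and 35.3 in S1a and 37.5 and 68.2 in parental cells, and was called lower in S1b (limma adjusted p = 0.02). These signals lay near or below the filter, so no fold is given. The share of each role group that could be seen was therefore uneven, from 1 of 7 developmental transcription factors to 8 of 12 traffic genes.

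Genes outside the segment that work with its members were set beside them. PCNA's partners, 13 tested of 13 listed, had a median of -0.0815 in S1b minus S1a with 0 called with limma (also 0 at an unadjusted p under 0.05), and in the mean of both isolates minus parental 5 rose, against 23.5% of all tested genes, and 3 fell, against 24%, with a median of 0.0884. PCNA itself differed by 0.19 ± 0.081 there (SE, limma adjusted p = 0.0753), which missed the threshold. RFC4, a subunit of the complex that loads the clamp, gave 4103 and 3959.6 units in S1b, 4521 and 4224 in S1a and 3139 and 2979 in parental cells, and rose by 0.46 ± 0.071 (SE, limma adjusted p = 0.000546). Another loader subunit, RFC2, fell by 0.60 (limma adjusted p = 0.00023), as did the DNA polymerase delta subunits POLD3, by 0.68 (0.000152), and POLD4, by 0.66 (0.00443).

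Of the phospholipase C pathway outside the segment, 10 of 11 listed genes were tested, and in the mean of both isolates 1 rose, against 23.5% of all tested genes, and 3 fell, against 24%. Their median was -0.0797, which turned to between 0.0329 and 0.111 under the 3 other scalings. PRKCA, a protein kinase C that diacylglycerol activates, gave 1853 and 1687 units in S1b, 1531 and 1709 in S1a and 1037 and 1014 in parental cells, and rose by 0.72 ± 0.082 (SE, limma adjusted p = 7.45e-05). ITPR3, a calcium channel opened by inositol trisphosphate, gave 682 and 548 units in S1b, 819 and 824 in S1a and 1802 and 2115 in parental cells, and fell by 1.46 (limma adjusted p = 5e-06). GNA11 and GNAQ, G protein subunits that activate PLCB1's enzyme family, fell by 0.74 (limma adjusted p = 0.000131) and 0.40 (0.00766), and GNAQ lost its call under median centring. Between the isolates 0 of the 10 were called with limma (1 lower at an unadjusted p under 0.05).

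The cathepsins, the proteases that cystatins block, were tested for all 9 listed genes. In the mean of both isolates 5 fell, against 24% of all tested genes, and 1 rose, against 23.5%, with a median of -1.05. CTSS gave 90.7 and 88.4 units in S1b, 79.8 and 119 in S1a and 448 and 437 in parental cells, and fell by 2.20 (limma adjusted p = 1.57e-05). CTSL fell by 1.26 (limma adjusted p = 3.85e-06), CTSH by 1.09 (4.65e-05) and CTSB by 1.05 (5.62e-06), and CTSC, which rose, had 0.61. Between the isolates the 9 had a median of 0.0721 and 0 were called with limma (2 higher and 1 lower at an unadjusted p under 0.05). Of the 5 tested cystatins, CST3 and CST7 were lower in S1b, and CST1, CST2 and CST4 had higher means. Those values come from the contrast that drew the segment.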

How the data were processed

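The authors deposited 1 intensity on a linear scale for each probe set and array. Per the submitters' processing notes the tool was MAS5, whose version is not given in the sources used here. Trimming the top and bottom 2% of signals left a mean of 500.2 on every array. Detection calls and scanner files were not used here, so background correction was not repeated. Precision is limited by the number of arrays, 2 in each group.

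In all there were 22277 probe sets. Of these the 62 controls were left out, and a platform annotation gave 1 symbol for 19064 of the rest, several for 1043 and none for 2108. Symbols and chromosome 20 positions came from RefSeq (GRCh38.p14), which matched 19052 probe sets. Each gene was read from its brightest probe set by mean. Probe sets with a mean under the 40th percentile (51.6 units) were left out, which left 7554 genes. Values were log2(signal + 3.942), the pseudocount being the 10th percentile of all signals, so changes of dim genes are understated. Where the dimmer group's mean lay below 51.6 units, the brighter mean over 51.6 is given as "at least N-fold".

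A model of 3 group means used all 6 arrays together, in limma 3.58.1 under R 4.3.3 (lmFit and eBayes with a variance trend, 7.06 prior and 3 residual degrees of freedom), with Benjamini-Hochberg adjustment over all genes and a threshold of 0.05. The fit was run on simulated data with independent normal noise drawn from its own estimates. That run cannot show whether the spread between these arrays is technical or how scaling matters. All adjusted p-values are limma's. No test was made over the members as a list. Genes were named by rule: the genes at and beside both ends, the 10 largest differences in either direction, the largest calls in the mean of both isolates, the 4 brightest members of each role list, and the 4 genes of each partner list with the smallest p. TMX4, SLC23A2, MKKS, CTSC, CHGB and ANKEF1 were named after their values were seen. The members and lists were chosen with earlier results of these data known. Alternatives for the pseudocount, filter, scaling, probe set rule, variance trend, array weights, replicate block and left-out arrays are given in the closing section.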

Additional observations from a re-analysis of the deposited data

Results flagged for a closer look

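In 13 members S1b and S1a differed in their change against parental cells. For 12 of them limma's S1b minus S1a contrast, which is the difference of those changes, passed the threshold, as it did for 1.97% of all tested genes in either direction. That contrast drew the segment, so the 12 carry no weight as a count. The log2 differences, S1b minus S1a, were -2.91 for CST7, -1.01 for PYGB, -0.91 for TMEM230, -0.67 for CST3, -0.66 for DSTN, -0.58 for SNX5, -0.56 for MKKS, -0.54 for RIN2, -0.51 for NXT1, -0.47 for PCNA, -0.44 for APMAP and -0.43 for PANK2. In KIZ the difference was -0.15 and was not past the threshold, but both S1a arrays lay above and both S1b arrays below the parental arrays, and that opposition was not tested. The causes of these differences were not tested.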

How the results depend on the processing

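Genes named by rule were followed in S1b minus S1a, and these and the called members in the mean of both isolates. No called value among those followed changed direction. The fit of every probe set was left out of this check. MKKS, NXT1 and RIN2, called between the isolates, were not followed in that contrast, nor was any gene in either isolate alone against parental. The S1b minus S1a median of the segment ran from -0.455 to -0.291. Without a filter it was -0.291, with 7 of 69 members called lower, against 0.418% of all genes in that fit, and 8 whose arrays did not overlap upward. There S1a minus parental had a median of 0.0548, S1b minus parental -0.0849, and the short arm before MAVS -0.221. Apart from median centring, shares of all genes under an alternative were taken only for calls lower between the isolates. Other counts in this section therefore have no background beside them. With a filter at the 60th percentile, 1 member did not overlap upward and S1a minus parental had 0.2. Median centring gave S1a minus parental 0.302 with 3 called lower, and S1b minus parental -0.015 with 7 called higher. Cyclic loess gave S1a minus parental 0.161. With the mean of a gene's probe sets S1b minus parental had -0.32 and the short arm before MAVS -0.397. With every probe set on its own the isolates' calls lower were 19, S1a minus parental had 0.0474, S1b minus parental -0.341 with 23 called lower, and the short arm before MAVS -0.387. Leaving out probe sets of shared-probe suffixes left 28 members. Of these, 7 were called lower between the isolates, against 0.999% of all tested genes, and 21 did not overlap downward. In the mean of both isolates 6 rose and 7 fell. The medians were 0.244 for S1a minus parental and -0.247 for S1b minus parental. Without a variance trend 1 member was called lower between the isolates, against 0.132% of all tested genes, and 9 were called higher in S1a minus parental. With array weights 1 member was called higher in S1b.

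Replicate numbers did not pair the arrays: deviations of same-numbered arrays correlated at -0.0956 (S1b and S1a), -0.0744 (S1b and parental) and 0.00861 (S1a and parental). With the replicate block 6 members were called lower between the isolates, against 0.675% of all tested genes, and 20 of the 22 calls in the mean of both isolates were kept. Leaving out each array in turn, the S1b minus S1a median ran from -0.455 to -0.368, the calls lower from 4 to 16 and higher from 0 to 1. The median of the short arm before MAVS ran from -0.361 to -0.291. S1a minus parental had 8 to 15 called higher and 3 to 8 called lower, and S1b minus parental a median of -0.247 to -0.207 with 3 to 5 called higher. The causes of these shifts were not tested. No DNA was measured, so a change of copy number and one of transcription cannot be told apart.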

Other observations

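On the short arm before MAVS, 3 of 25 tested genes were called lower in S1b than in S1a with limma, against 1.5% of all tested genes. These 3 were singled out after their values were seen. TRIB3, a pseudokinase of the stress response, gave 530.2 and 477 units in S1b, 819.9 and 847 in S1a and 624 and 644 in parental cells, a difference of -0.72 between the isolates. NSFL1C, a cofactor of the segregase p97, gave 893 and 963 in S1b, 1415 and 1259 in S1a and 1164 and 1186 in parental cells (-0.52). IDH3B, a subunit of mitochondrial isocitrate dehydrogenase, gave 1854 and 1930.0 in S1b, 2566 and 2517 in S1a and 1432 and 1620.5 in parental cells (-0.43). For TRIB3 and NSFL1C the parental arrays lay between the isolates, and for IDH3B below both.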
